A study of Mus musculus with 6 samples.

Results

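The integrated stress response was followed through 10 genes, Atf4 and 9 genes that its protein is known to switch on, in the tibia of female mice 12 weeks old. The members were chosen by symbol: Atf4, Ddit3, Trib3, Chac1, Asns, Atf3, Ppp1r15a, Sesn2, Psat1 and Phgdh. All 10 were found among the 56748 genes counted, and all 10 passed the filter on low counts that left 18514 genes for testing. Tibiae came from 3 samples labelled Col1a1+/-, heterozygous for the gene of the alpha 1 chain of type I collagen, and 3 labelled wild type. The mice were described as modelling osteogenesis imperfecta type I, in which bones break easily. An anti-TGF-beta treatment appears in the series title, but no treatment, strain or description of the Col1a1 allele is given for these 6 samples. RNA came from flash-frozen bone with the marrow flushed out, and polyadenylated RNA was sequenced. Separate animals are not named in the labels, and the p-values below cover the spread between samples, which may be technical.

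The integrated stress response starts when a kinase that senses misfolded protein in the endoplasmic reticulum, missing amino acids, lack of haem or viral RNA phosphorylates the translation factor eIF2 on its alpha subunit. Most translation then slows, while the Atf4 message is translated more, because short reading frames ahead of its coding sequence no longer divert the ribosomes. ATF4 protein binds with C/EBP partners to a composite DNA element and switches on genes for amino acid synthesis and uptake, redox control and, if stress lasts, cell death. In bone ATF4 is known as a factor of osteoblasts, which need large amounts of amino acids to make collagen. Counts of messenger RNA do not measure how much of the Atf4 message is translated.

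The ATF4 element is shown first because Chac1, the member that changed, holds a copy of it. The letters TGATGNAA, where N is any base, were searched on both strands of RefSeq promoter windows on GRCm38.p6, each 250 bases before to 50 bases after a gene start. All 10 members were in that table, with 11 windows since Psat1 has a pair of starts. The motif was found in 4 of the 11 windows, against 3.97% of 32851 windows of the same length. The matches are printed in the motif's reading direction, 5′ to 3′, with the motif in capitals and 10 bases on either side.
Chac1: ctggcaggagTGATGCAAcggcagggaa
Atf3: gcggacttggTGATGCAAgtgcgagaag
Asns: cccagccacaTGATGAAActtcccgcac
Trib3: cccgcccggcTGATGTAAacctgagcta
The Chac1 window lies at chr2:119351039-119351066 and is printed on the minus strand, opposite to the gene, with the motif beginning at base -193 from the gene start, where -1 is the last base before it. The Atf3 window at chr1:191183426-191183453 is printed on the plus strand, opposite to the gene, and its motif begins at base -110. The Asns window at chr6:7693215-7693242 is printed on the minus strand, the strand of the gene, and its motif begins at base -23. The Trib3 window at chr2:152344029-152344056 is printed on the plus strand, opposite to the gene, and its motif begins at base 15, counting the start as 1. For Trib3 alone, the last 50 bases of the window were not found in a transcript of the gene in the GENCODE annotation used for names. Chac1 and Atf3 carried the same core, TGATGCAA. Of the 4 genes with the motif only Chac1 passed the test between genotypes described below, and Atf3, Asns and Trib3 did not. The ER stress response element bound by ATF6 was found in 0 of the 11 windows and in 0.119% of all windows. A missing match says only that those letters are not in the window.

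The 250 bases ahead of the Chac1 start are printed whole, since the differences below turn on this gene. They cover chr2:119350992-119351241 of GRCm38.p6, plus strand, the strand of the gene. Capitals mark the ATF4 element, which here reads as its reverse complement.
Chac1 promoter: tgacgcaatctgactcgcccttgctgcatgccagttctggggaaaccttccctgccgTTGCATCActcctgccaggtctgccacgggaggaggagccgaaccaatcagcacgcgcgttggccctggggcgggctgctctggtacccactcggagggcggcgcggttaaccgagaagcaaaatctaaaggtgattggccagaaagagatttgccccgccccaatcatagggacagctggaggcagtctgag

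Each library held 26830644 to 32379684 counted reads. Over all genes, 803 of 18514 passed an adjusted p of 0.05 (4.34%; edgeR's quasi-likelihood test, Benjamini-Hochberg adjustment), 265 higher (1.43%) and 538 lower (2.91%) in Col1a1+/-. Col1a1 itself stood at 52820 to 61080 CPM (counts scaled to a common library size) in Col1a1+/- and 36770 to 61280 CPM in wild type, so its level did not check the labels. The ratio of Col1a1 to Col1a2 counts did not overlap between genotypes, at 0.775 to 0.836 in Col1a1+/- and 1.25 to 1.32 in wild type. The tissue held RNA of its defining cells: all 16 osteoblast and 13 osteocyte markers had reads in at least 1 library. Of these, 16 and 12 passed the filter on low counts. The osteoblast list took 3.84% to 9.32% of counts and the osteocyte list 0.111% to 0.246%. The libraries also differed in other tissues. A list of 24 skeletal muscle genes took 1.97% to 4.02% of counts in Col1a1+/- and 6.3% to 7.98% in wild type (exact two-sided permutation p = 0.1, the smallest that 3 against 3 allows). Osteoblast markers took 8.3% to 9.32% in Col1a1+/- and 3.84% to 5.51% in wild type, cartilage markers 0.727% to 0.926% in Col1a1+/-, against 0.326% to 0.464%. Col1a2 is on the osteoblast list and, judged from its counts relative to Col1a1, took most of the reads of that list in every library. Wild-type replicate 1 stood apart with 0.644% neutrophil transcripts, against 0.107% to 0.178% in the other 5 libraries.

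Of the 10 genes, Chac1 fell in Col1a1+/- and the other 9 did not pass the test, so 1 was called lower and 0 higher. That is 1 in 10, beside 4.34% of all genes tested. At an unadjusted p under 0.05 it was also 1 member, beside 22.8% of all genes. The median log2 fold change of the 10 genes was 0.04 and that of all tested genes was -0.01, with 5 members above 0 and 5 below. Besides Chac1, the folds of Col1a1+/- over wild type ran from 0.955 for Trib3 to 1.14 for Sesn2. The genotypes did not overlap for 2 members, Chac1 and Sesn2, where 28.6% of all tested genes did not overlap. In bulk tissue, fewer cells of a type and less RNA per cell cannot be told apart.

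**Figure D1:**
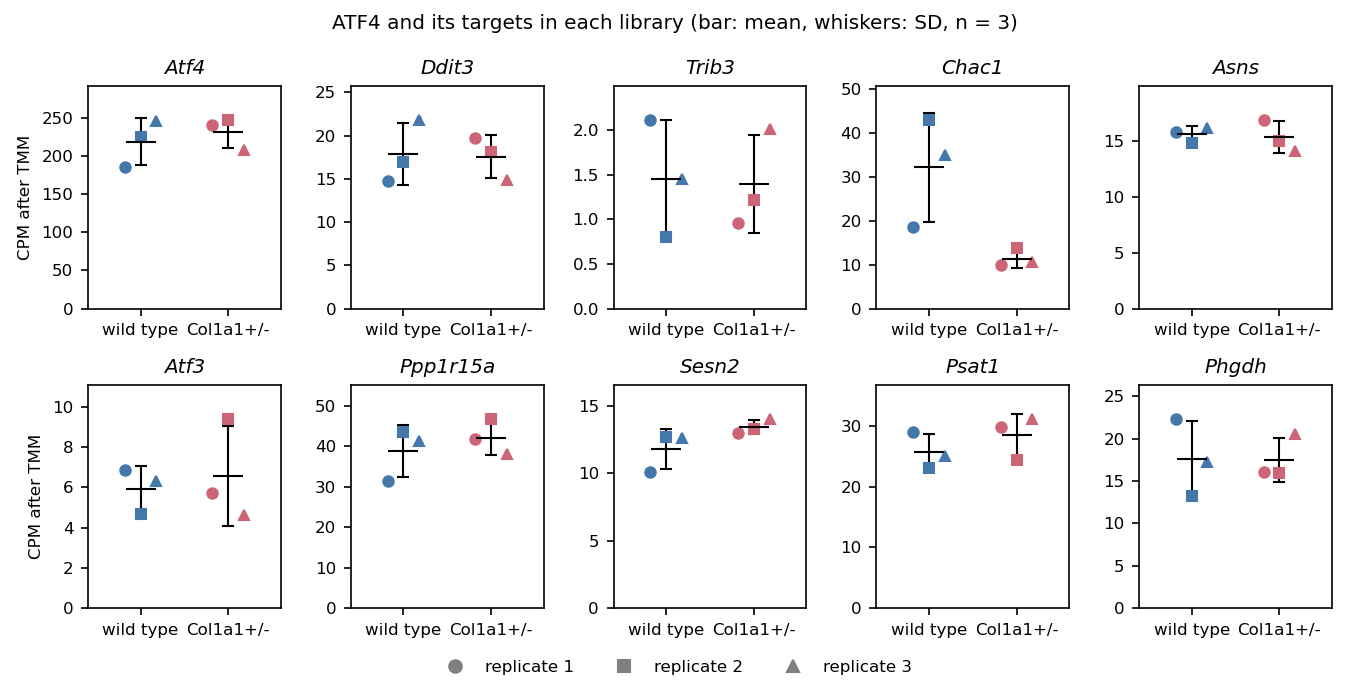
Each panel plots 1 gene as CPM after TMM scaling in the 3 wild-type (blue) and 3 Col1a1+/- (red) libraries, with the mean as a bar and the SD as whiskers, on axes that start at 0. Marker shapes give replicate numbers; Chac1 lies between 9.88 and 13.8 CPM in Col1a1+/- and between 18.6 and 42.9 CPM in wild type, while 8 of the other panels overlap and Sesn2 is set apart by a narrow gap.

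Atf4, the transcription factor at the head of the pathway, was the most abundant member per length of transcript. Its gene (ENSMUSG00000042406; 2358 bp of exon on the plus strand of chromosome 15, 80139385 to 80141742 in GRCm39) stood at 240, 247 and 208 CPM in Col1a1+/- replicates 1, 2 and 3. In wild-type replicates 1, 2 and 3 it stood at 185, 225 and 246 CPM. The ranges overlapped, with wild-type replicate 1 the lowest of all 6. The log2 fold change was 0.08 (SE 0.14, 95% interval -0.23 to 0.40, adjusted p = 0.772 by edgeR), an interval of 0.854 to 1.32 in fold. The Atf4 message therefore differed by less than the spread between replicates, with no measure of its protein.

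Chac1 encodes an enzyme that breaks down glutathione, the main small antioxidant of the cell, and is known as a late and strong target of ATF4. Its gene (ENSMUSG00000027313; 1637 bp of exon on the plus strand of chromosome 2, 119181710 to 119184862 in GRCm39) held 330, 394 and 297 reads in Col1a1+/- replicates 1, 2 and 3 and 600, 1184 and 1012 in the wild-type replicates. After scaling this was 9.88, 13.8 and 10.5 CPM in Col1a1+/-. Wild type stood at 18.6, 42.9 and 35 CPM. Every Col1a1+/- library lay below every wild-type library, and the wild-type libraries were the more scattered, with replicate 1 nearest to Col1a1+/-. Mean Chac1 was 11.4 ± 2.09 CPM in Col1a1+/- against 32.1 ± 12.4 CPM (SD, n = 3), and the fitted level was 2.83-fold lower. The log2 fold change was -1.50 (SE 0.30, 95% interval -2.21 to -0.79) with an adjusted p of 0.0436 in edgeR, and the exact permutation p was 0.1, the lowest that 3 against 3 can give. Of all tested genes, 1.94% had a lower log2 fold change.

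The call of Chac1 lay close to the threshold. It was lost without Col1a1+/- replicate 1 (adjusted p = 0.159 by edgeR), Col1a1+/- replicate 3 (0.142), wild-type replicate 2 (0.0895) or wild-type replicate 3 (0.135), with log2 fold changes of -1.39, -1.42, -1.24 and -1.43. It was also lost with no filter on low counts (adjusted p = 0.128) and with the skeletal muscle score as a covariate.

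Chac1 and skeletal muscle RNA were both higher in every wild-type library than in every Col1a1+/- library. From the highest to the lowest Chac1, the muscle list took 6.38%, 7.98% and 6.3% of counts in wild-type replicates 2, 3 and 1, then 4.02%, 1.97% and 2.18% in Col1a1+/- replicates 2, 3 and 1. The split by genotype alone put the wild-type libraries first in both orders. Within a genotype the orders differed. Wild-type replicates 1 and 2 had 6.3% and 6.38% muscle RNA, but 18.6 and 42.9 CPM of Chac1. Col1a1+/- replicate 2 was the highest of its genotype in both, while replicate 3 was the lowest in muscle RNA and replicate 1 in Chac1. Chac1 reads per 100 reads of the muscle list, a ratio singled out after the values were seen, numbered 0.0468, 0.0343 and 0.0562 in Col1a1+/-. In wild type they numbered 0.0325, 0.0624 and 0.0392. These ranges overlapped, and the ratio of the means was 1.02. Per 100 reads of the osteoblast list, Chac1 reads numbered 0.0113 to 0.0166 in Col1a1+/- and 0.0534 to 0.0722 in wild type, without overlap, and the ratio of the means was 0.206. Most reads of the osteoblast list were of Col1a2, so this ratio is largely one to a single collagen gene. All 24 muscle genes were tested, 9 were called lower, beside 2.91% of all genes, and 0 higher. Their median log2 fold change was -1.59, beside -1.50 for Chac1. With the muscle score as a covariate the log2 fold change of Chac1 was -0.68 (adjusted p = 0.864 by edgeR). In that fit Atf4, Atf3 and Ppp1r15a stood at 0.53, 1.05 and 0.59 (adjusted p = 0.802 each by edgeR). Ddit3, Sesn2 and Asns stood at 0.54, 0.29 and 0.05, and Trib3, Phgdh and Psat1 at -0.88, -0.49 and -0.31. Over all genes 0 were called in that fit and 1107 had an unadjusted p under 0.05. The muscle scores of the genotypes did not overlap, so genotype and muscle RNA cannot be told apart.

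Set against Atf4 in the same library, which needs no scaling, Chac1 stood apart from the other targets. Chac1 reads amounted to 4.11%, 5.56% and 5.05% of Atf4 reads in Col1a1+/- and to 10%, 19.1% and 14.3% in wild type (exact permutation p = 0.1, the smallest possible). The mean ratio in Col1a1+/- was 0.34 times that in wild type. For the other 8 targets this figure lay between 0.894 (Trib3) and 1.08 (Sesn2), and their ratios overlapped between genotypes.

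**Figure D2:**
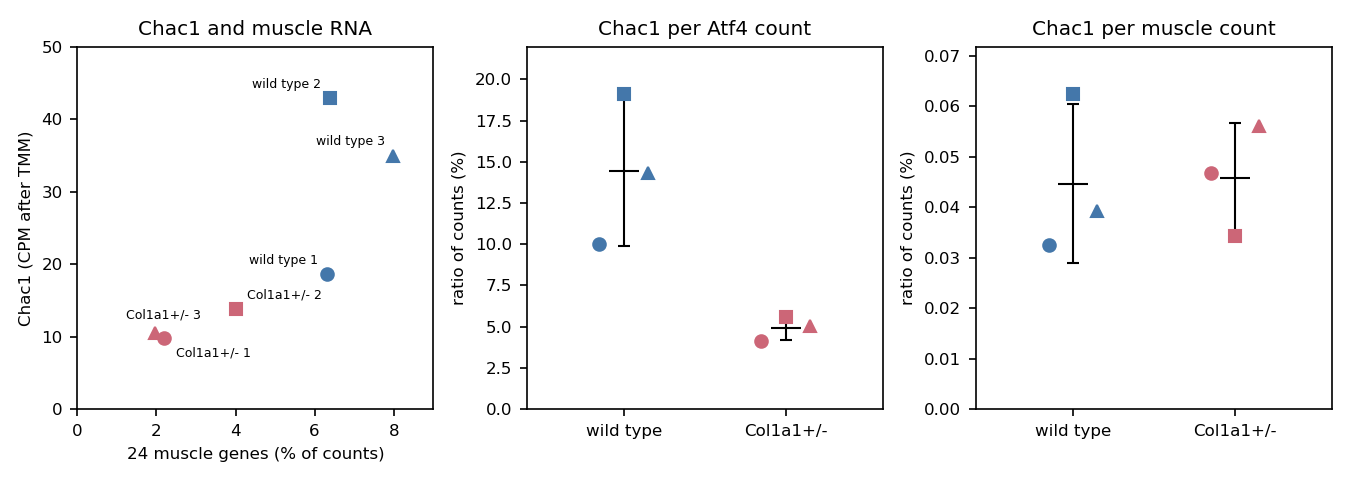
The left panel plots Chac1 (CPM after TMM) against the share of counts taken by 24 muscle genes in each library, the middle panel Chac1 reads as a percentage of Atf4 reads, and the right panel Chac1 reads as a percentage of muscle list reads, with bars for means and whiskers for SD (n = 3). The genotypes are apart in the left and middle panels (4.11% to 5.56% against 10% to 19.1%) and overlap in the right panel.

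The stress and cell death targets Ddit3, Trib3 and Atf3 did not pass the test. Ddit3, which encodes the pro-apoptotic factor CHOP (ENSMUSG00000025408; plus strand of chromosome 10, 127126643 to 127132157 in GRCm39), stood at 19.7, 18.1 and 14.9 CPM in Col1a1+/-. In wild type it stood at 14.8, 16.9 and 21.8 CPM. The ranges nearly coincided, with both extremes, 14.8 and 21.8 CPM, in wild type (log2 fold change -0.02, 95% interval -0.41 to 0.37, adjusted p = 0.965 by edgeR). A second identifier with the same symbol (ENSMUSG00000116429), 105 bp of exon that overlaps the first, was at 0 in all 6 libraries. Ddit3 shared 10.86% of its exon length with other genes, where reads were not counted, so its level is an undercount by an unknown amount.

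Trib3 (ENSMUSG00000032715; minus strand of chromosome 2, 152179342 to 152185952 in GRCm39), which encodes a pseudokinase that restrains AKT and ATF4, was the least abundant member, with 22 to 68 reads a library. Its level was 0.958, 1.22 and 2.01 CPM in Col1a1+/- and 2.11, 0.796 and 1.45 CPM in wild type. The lowest and the highest library were both wild type. Its 95% interval was the widest of the 10, 0.481 to 1.9 in fold, and its coefficients of variation were 39.2% in Col1a1+/- and 45.1% in wild type. Atf3 (ENSMUSG00000026628; minus strand of chromosome 1, 190902493 to 190950236), a bZIP factor induced by many stresses, stood at 5.72, 9.39 and 4.62 CPM in Col1a1+/- and 6.84, 4.67 and 6.3 CPM in wild type. Col1a1+/- replicate 2 was the highest of all and Col1a1+/- replicate 3 the lowest, and the interval was 0.708 to 1.73 in fold (adjusted p = 0.815 by edgeR).

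Ppp1r15a and Sesn2 belong to the recovery side of the response. Ppp1r15a (ENSMUSG00000040435; minus strand of chromosome 7, 45172340 to 45175692 in GRCm39) encodes GADD34, the subunit that brings a phosphatase to eIF2 alpha and so ends the response. It stood at 41.8, 46.7 and 38 CPM in Col1a1+/- and 31.5, 43.6 and 41.2 CPM in wild type, and the ranges overlapped (log2 fold change 0.12, 95% interval -0.20 to 0.44, adjusted p = 0.669 by edgeR). Sesn2 (ENSMUSG00000028893; minus strand of chromosome 4, 132219343 to 132237812) encodes sestrin 2, a leucine sensor that restrains mTORC1. It stood at 13, 13.3 and 14 CPM in Col1a1+/- and 10.1, 12.7 and 12.6 CPM in wild type. All Col1a1+/- libraries lay above all wild-type libraries, but the gap between 12.7 and 13 CPM was small. The log2 fold change was 0.19 (SE 0.15, 95% interval -0.14 to 0.52) and missed the threshold in edgeR (adjusted p = 0.492), with an exact permutation p of 0.1, again the lowest possible.

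The amino acid synthesis targets Asns, Psat1 and Phgdh did not pass the test either. Asns (ENSMUSG00000029752; minus strand of chromosome 6, 7675169 to 7693254 in GRCm39) encodes asparagine synthetase, the classical target of amino acid shortage. Its level was 16.9, 15 and 14.1 CPM in Col1a1+/- and 15.8, 14.8 and 16.2 CPM in wild type. It had the smallest range of all members, with its highest library 1.2 times its lowest, and the interval of its fold was 0.803 to 1.2 (adjusted p = 0.936 by edgeR). Phgdh (ENSMUSG00000053398; minus strand of chromosome 3, 98220486 to 98247306) and Psat1 (ENSMUSG00000024640; minus strand of chromosome 19, 15882042 to 15924701) encode the first enzymes of serine synthesis from a glycolytic intermediate. Phgdh stood at 16.1, 15.9 and 20.5 CPM in Col1a1+/- and 22.3, 13.2 and 17.2 CPM in wild type, so that wild type held both extremes (log2 fold change -0.01, adjusted p = 0.99 by edgeR). Psat1 stood at 29.8, 24.4 and 31.1 CPM in Col1a1+/- and 29, 23.1 and 25.1 CPM in wild type, with overlapping ranges (log2 fold change 0.15, 95% interval -0.16 to 0.45, adjusted p = 0.583 by edgeR). Both serine synthesis genes were lowest in wild-type replicate 2.

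**Figure D3:**
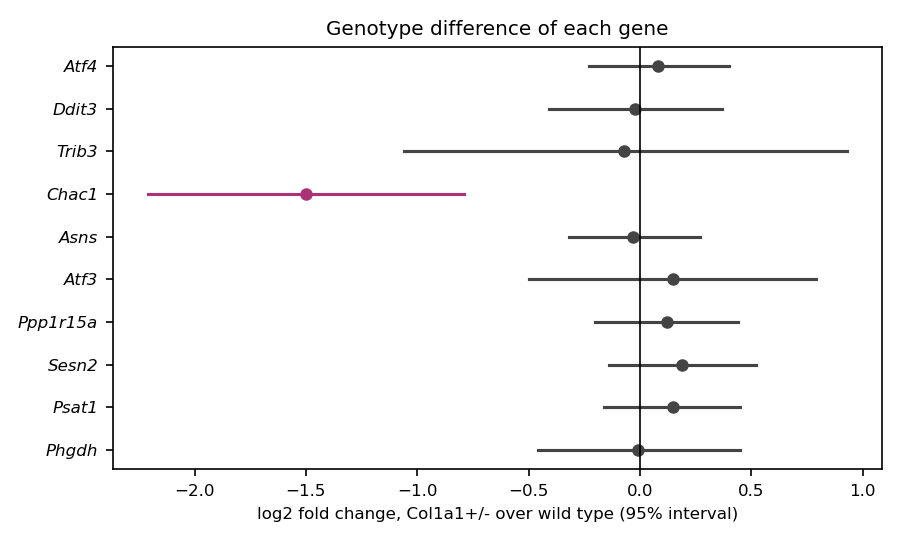
Points give the log2 fold change of each gene, Col1a1+/- over wild type, from edgeR, and lines its 95% interval; the gene that passed an adjusted p of 0.05 is coloured. The interval of Chac1, -2.21 to -0.79, lies below 0 and those of the other 9 genes include 0, with Trib3 the widest at -1.06 to 0.93.

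The members differed widely in level, compared here as CPM per kilobase of exon. Atf4 stood at 78.6 to 105 over the 6 libraries, above all others. Ppp1r15a (10.7 to 15.9), Ddit3 (8.62 to 12.7), Phgdh (5.31 to 8.98), Psat1 (5.42 to 7.31) and Asns (5.15 to 6.16) followed, and each of these overlapped its neighbour in this order. Sesn2 (2.91 to 4.04) lay below Asns without overlap and overlapped Atf3 (2.15 to 4.36), and Trib3 (0.375 to 0.991) lay below all others. Chac1 changed its place in the order between genotypes, from rank 2 of 10 in wild type (19.6 ± 7.57, SD, n = 3) to rank 5 in Col1a1+/- (6.95 ± 1.27). In wild type its range of 11.3 to 26.2 overlapped those of Ppp1r15a and Ddit3. In Col1a1+/- its range of 6.03 to 8.4 overlapped those of Phgdh, Psat1 and Asns. No other member moved by more than 1 rank.

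The members did not share 1 order of libraries. Wild-type replicate 1, the library rich in neutrophil transcripts, was the lowest of all 6 for 4 members (Atf4, Ddit3, Ppp1r15a and Sesn2) and the highest for 2 (Trib3 and Phgdh). Wild-type replicate 2 was the lowest for 3 members (Trib3, Psat1 and Phgdh) and the highest for Chac1. Leaving out wild-type replicate 1 gave a log2 fold change of -1.75 for Chac1 (adjusted p = 9.16e-03 by edgeR), 0.01 for Atf4 and 0.33 for Trib3, and 1 member was called, as with it.

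The rest of the pathway was described through 8 lists with 124 matched genes, of which 122 were tested. Of these 5 rose and 3 fell, which is 8 of 122 beside 4.34% of all genes, and the median log2 fold change was 0.04. With the muscle covariate or the replicate block, 0 of the 122 were called. The same held when any of Col1a1+/- replicates 1 and 3 and wild-type replicates 2 and 3 was left out.

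Upstream of ATF4, the genes for eIF2, its kinases, its phosphatase subunits and its exchange factor, listed with the GCN2 regulators Gcn1 and Impact and the mitochondrial stress relays Oma1 and Dele1, did not pass the test. Of 18 such genes 0 were called by edgeR, with 5 at an unadjusted p under 0.05, beside 22.8% of all genes. DESeq2 called 1 of the 18 lower and limma-voom 0. The median log2 fold change was -0.14. Eif2ak3, which encodes PERK, the kinase that senses misfolded protein in the endoplasmic reticulum, stood at 35.4, 33.8 and 44.7 CPM in Col1a1+/- and 31.2, 32.4 and 31.7 CPM in wild type. All Col1a1+/- libraries were above wild type, with 1 of them well above (log2 fold change 0.26, adjusted p = 0.259). Eif2s2, the beta subunit of eIF2, stood at -0.39 (adjusted p = 0.0793).

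Other stress targets of ATF4 moved in both directions. Of 21 tested, 2 rose and 1 fell, beside 1.43% and 2.91% of all genes, with a median of 0.15. Stc2, which encodes the secreted glycoprotein stanniocalcin 2, was at 20.6, 31.9 and 26.6 CPM in Col1a1+/- and 15.5, 12.5 and 9.07 CPM in wild type. It rose 2.13-fold with no overlap (log2 fold change 1.09, SE 0.22, adjusted p = 0.0395). Ddit4, which encodes REDD1, an inhibitor of mTORC1, was at 139, 198 and 168 CPM in Col1a1+/- and 111, 104 and 85.4 CPM in wild type, and rose 1.68-fold (adjusted p = 0.0376). Nfe2l1, which encodes a factor for proteasome genes, fell to 279 ± 34.8 CPM in Col1a1+/-, where wild type had 504 ± 88.6 CPM (log2 fold change -0.85, adjusted p = 0.0329). Fgf21 was too low to test. With libraries scaled on osteocyte genes, which moved the median of all genes from -0.01 to -0.71, 0 of these genes were called higher and 3 lower. DESeq2 and limma-voom each called 2 higher and 1 lower. With the erythroid and neutrophil covariate, or without Col1a1+/- replicate 2, 0 were called higher and 1 lower.

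Amino acid genes other than the members were likewise mixed. In the serine, glycine and folate cycle list 0 of 12 were called by edgeR, with 3 at an unadjusted p under 0.05, beside 22.8% of all genes. DESeq2 called 1 of the 12 higher and limma-voom 0, and the median was 0. The smallest p in each direction belonged to Gldc and Gcsh, parts of the glycine cleavage system, at log2 fold changes of 1.39 (adjusted p = 0.0863) and -0.50 (0.109). Of 12 tested genes of other amino acid synthesis 2 fell, beside 2.91% of all genes: the transaminases Gpt2 and Got2. Gpt2 was at 34.8, 46.8 and 31.8 CPM in Col1a1+/- and 64.1, 74.6 and 89.5 CPM in wild type (log2 fold change -1.01, adjusted p = 0.0269). Got2 stood at 103 ± 19.8 against 237 ± 75.8 CPM (log2 fold change -1.21, adjusted p = 0.0443). Both transaminases and Nfe2l1 were highest in wild-type replicate 3, the library with the most muscle RNA.

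Per muscle list read, Gpt2 and Nfe2l1 were not lower in Col1a1+/-. Their ratios in Col1a1+/- were 1.41 and 1.61 times those in wild type, without overlap (exact permutation p = 0.1 each), and that of Got2 was 1.26 times, with overlap. For these 3 genes too, genotype and muscle RNA cannot be told apart.

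Among 13 amino acid transporters 1 rose, beside 1.43% of all genes: Slc1a4, which carries serine and alanine. It was at 18.3, 21.2 and 16.5 CPM in Col1a1+/- and 12.6, 9.01 and 10.7 CPM in wild type, 1.73-fold higher without overlap (log2 fold change 0.79, SE 0.17, adjusted p = 0.0397). The transporter median was 0.17. DESeq2 and limma-voom also called 1 transporter higher, and 0 were called without Col1a1+/- replicate 2. Osteoblast markers were higher in the same libraries as Stc2, Ddit4 and Slc1a4, with 8 of 16 called higher, beside 1.43% of all genes. Of the osteoblast markers 0 were called lower and their median was 0.78, and their part in these 3 changes was not tested. Of 18 matched cytosolic aminoacyl-tRNA synthetases, which charge transfer RNAs and are a further ATF4 target group, 0 were called by edgeR. An unadjusted p under 0.05 was reached by 5 of the 18, beside 22.8% of all genes. DESeq2 called 1 synthetase lower and limma-voom 0. Gars1, the glycine enzyme, stood at 0.25 (adjusted p = 0.2), and the median was -0.12.

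The list for the other branches of the unfolded protein response held targets of XBP1 and ATF6 together with Xbp1, Atf6, Atf6b and Ern1 themselves. Like the other lists, it was chosen with earlier results of these data known. All 22 of its genes had log2 fold changes above 0. Of these 2 rose, beside 1.43% of all tested genes. DESeq2 called 6 higher and limma-voom 3, while 0 were called with the replicate block, with either covariate, or without Col1a1+/- replicate 1 or 3 or wild-type replicate 2 or 3, and 6 without wild-type replicate 1. The median of the list was 0.24, beside -0.01 for all tested genes, and the range 0.11 to 0.67. Osteoblast markers, by reads mostly Col1a2, took 8.88% ± 0.524 of counts in Col1a1+/- against 4.65% ± 0.835 in wild type (SD, n = 3). Their part in this list was not tested. Manf, a secreted survival factor of the endoplasmic reticulum, was at 110, 108 and 118 CPM in Col1a1+/- and 68.4, 75.1 and 73.8 CPM in wild type (1.55-fold, adjusted p = 0.0238). Pdia4, a disulfide isomerase, stood at 130 ± 27 against 82.1 ± 5.91 CPM (1.59-fold, adjusted p = 0.0458). The median of this list was -0.44 when libraries were scaled on osteocyte genes, where that of all genes was -0.71, and -0.01 with the muscle covariate. Of 9 tested targets of mitochondrial stress 0 were called by edgeR, with 5 at an unadjusted p under 0.05, beside 22.8% of all genes. DESeq2 called 1 of these targets lower and limma-voom 0. Their median was -0.28, with Hspa9, a mitochondrial chaperone, at -0.58 (adjusted p = 0.0592) and Pck2, a mitochondrial enzyme of gluconeogenesis, at 0.34 (adjusted p = 0.191).

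**Figure D4:**
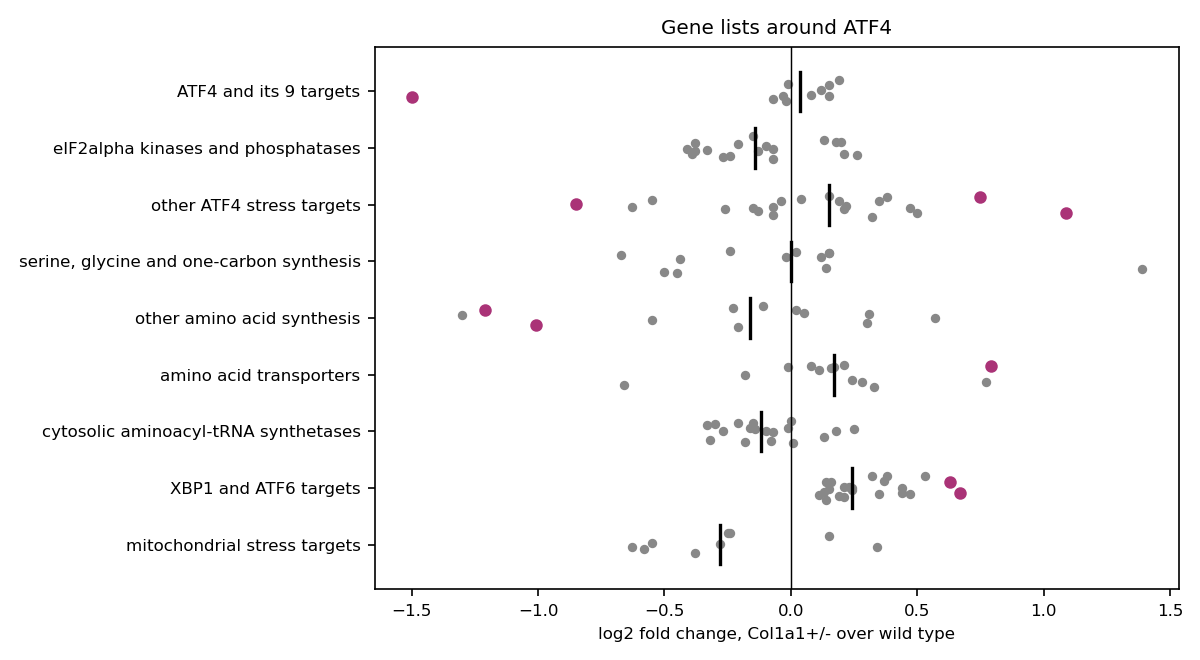
Each point is 1 tested gene at its log2 fold change, Col1a1+/- over wild type, by list; coloured points passed an adjusted p of 0.05 in edgeR and bars are list medians. Chac1 at -1.50 is the only coloured point of the top row, and the XBP1 and ATF6 row lies wholly above 0, at 0.11 to 0.67, under TMM scaling. The median of that row was -0.44 under scaling on osteocyte genes, where the median of all genes was -0.71.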

How the data were processed

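The authors deposited raw read counts per gene, 1 table for each of 6 libraries, not normalized, per the file headers. The submitters' processing notes name Trimmomatic 0.39, HISAT2 2.2.1 and SAMtools 1.20. featureCounts 2.0.3 counted reads over exons of Ensembl release 107 on GRCm39, per the file headers. The command counts each mate of a pair, uses no strand and drops multi-mapped reads and those that touch more than 1 gene. Symbols came from an annotation on an earlier build by gene identifier (52073 of 56748 named); where 2 identifiers share a symbol (Ddit3) the longer was used. RefSeq promoter windows are on GRCm38.p6.

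Genes were filtered with filterByExpr, libraries scaled by TMM (factors 0.892 to 1.1), and genotypes compared with edgeR 4.0.16 in R 4.3.3 (quasi-likelihood F test, robust, genotype as the only term, two-sided, Benjamini-Hochberg adjusted p under 0.05 over all tested genes). The fit was tested on simulated data. SE is the absolute log2 fold change over the square root of F. CPM use TMM-scaled library sizes. The muscle score averages log2 CPM over the list (prior count 2). Alternatives were library totals, osteocyte scaling, DESeq2 1.42.0, limma-voom 3.58.1, no filter, halved counts, covariates, a replicate block and leaving out each library. The members and lists were chosen with earlier results of these data known. All members are named; of each list, up to 2 called genes per direction with the smallest p, or, with none called, the smallest p in each direction; 1 gene so chosen is not reported here. Ratios to the muscle and osteoblast lists were added after values were seen. Within a genotype, the chi-square per degree of freedom between library pairs was 25.7 to 88.4, so none was a copy.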

Additional observations from a re-analysis of the deposited data

How the results depend on the processing

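Chac1 was lower in Col1a1+/- under all 15 alternatives (log2 fold change -2.08 to -0.68) and called under 9 of them (adjusted p 3.83e-06 to 0.864 over the alternatives), and no other member was called under any. The number of members called was 1, and 0 with no filter on low counts, 0 with the muscle covariate and 0 to 1 with 1 library left out. The pathway lists had 5 genes higher and 3 lower. They had 7 and 5 with library totals, 0 and 28 with osteocyte scaling, 11 and 7 by DESeq2, 10 and 5 with no filter, 0 and 0 with the muscle covariate, 2 and 5 with the erythroid and neutrophil covariate, and 0 to 11 and 0 to 9 with 1 library left out. Over all genes, 265 were higher and 538 lower. These became 588 and 739 with library totals (44.3% of calls higher in place of 33%), 10 and 3501 with osteocyte scaling (0.285%), 788 and 1468 by DESeq2, 577 and 895 with no filter, 0 and 0 with the muscle covariate, 73 and 483 with the erythroid and neutrophil covariate (13.1%), and 0 to 594 and 0 to 1172 with 1 library left out. With Col1a1+/- replicate 1 or wild-type replicate 3 left out, 0 genes passed in edgeR, while 3276 and 3239 had an unadjusted p under 0.05. The cause of these shifts was not tested.

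Members near 0 changed sign. With library totals Ddit3, Asns and Phgdh stood at 0.08, 0.05 and 0.05, and by limma-voom Phgdh at 0.00. With osteocyte scaling Atf4, Atf3, Ppp1r15a, Sesn2 and Psat1 stood at -0.58, -0.58, -0.52, -0.48 and -0.59, where the median of all genes was -0.71. Without a change of sign, Ddit3, Trib3, Asns and Phgdh moved to -0.68, -0.92, -0.72 and -0.8 under that scaling. With the muscle covariate Ddit3, Asns and Psat1 stood at 0.54, 0.05 and -0.31, and without a change of sign Atf4, Atf3, Ppp1r15a and Trib3 moved to 0.53, 1.05, 0.59 and -0.88 (unadjusted p = 0.0593, 0.0524, 0.05 and 0.356, none called by edgeR). Sesn2 and Phgdh moved to 0.29 and -0.49 in that fit, also without a change of sign. With the erythroid and neutrophil covariate Atf4, Trib3, Asns, Ppp1r15a, Sesn2 and Phgdh stood at -0.06, 0.16, 0.05, -0.08, -0.02 and 0.21. With 1 library left out the ranges were -0.11 to 0.15 for Ddit3, -0.4 to 0.33 for Trib3, -0.08 to 0.06 for Asns, -0.2 to 0.37 for Atf3 and -0.17 to 0.23 for Phgdh.

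Deviations of same-numbered libraries from their genotype means correlated at 0.11, 0.04 and -0.12, and those of differently numbered libraries at -0.2 to 0.19. With 3 libraries per genotype these values cannot show whether same-numbered samples were paired. With the replicate block 37 genes were higher and 89 lower, the pathway lists had 0 and 0, Phgdh stood at 0.02 and Chac1 at -1.43 (adjusted p = 0.0421). With counts halved, since both mates of a pair were counted, the SE of Trib3, the member with the fewest reads, was 0.43 in place of 0.44.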
